A study of Mus musculus with 22 samples.

Results

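Of the 136207 hnRNP A1 footprints listed for the spinal cords of 10 mice, 872 (0.640%) were at least 500 nt long. These long footprints were selected on their length alone, as end minus start in each list, with no use of the group, the gene or the sequence. Their median length was 680 nt, 336 reached 750 nt and 118 reached 1000 nt. Together they held 3.98% of the nucleotides covered by all footprints. As a description of the limit, 36 footprints lay within the first 10 nt above it and 35 within the 10 nt below it, of which 25% and 14.3% lay outside genes, 22.2% and 8.57% in coding sequence, and 38.9% and 48.6% had a near-identical copy in the same list.

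hnRNP A1 is an RNA-binding protein that coats pre-mRNA in the nucleus, competes with splicing activators over exons and shuttles to the cytoplasm. It is known to prefer UAG-containing RNA, and because much of the RNA it meets is unspliced, introns and repeat-derived sequence within them are among its known targets. CLIPseq crosslinks protein to RNA with UV light, recovers the protein with an antibody and sequences the RNA that comes with it. Experimental autoimmune encephalomyelitis (EAE) is a model of multiple sclerosis in which immunization against myelin leads to inflammation and paralysis.

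The footprints came from female wild-type C57Bl/6 mice, 3 naïve, 3 with mild EAE (mice 3, 4 and 7, clinical scores 1.5, 1.5 and 1.0) and 4 with severe EAE (mice 1, 2, 5 and 6, scores 2.5, 3.0, 2.5 and 3.0). Mice are numbered as in the labels, and each gave 1 immunoprecipitation. EAE was induced with the myelin peptide MOG(35-55), emulsified in complete Freund's adjuvant, plus 100 ng of pertussis toxin. The protocol gives 12 weeks as the age at immunization and another label 8 weeks, and cords were taken 15 days after onset. Naïve mice were age-matched and not immunized, and all cords were irradiated at 254 nm and digested with RNase I. A whole cord holds neurons, glia and, in EAE, infiltrating leukocytes, so fewer cells of a type and less bound RNA per cell cannot be told apart. The lists give no strand, score or read count, so how many reads lie behind any one of them is unknown.

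The lists themselves differed in length, and 3 mice stood apart. Naïve mice had 17119 to 17494 footprints of any length, mild EAE mice 9751 to 24433, and severe EAE mouse 5 had 31870. Severe EAE mice 1, 2 and 6 had 2670, 209 and 673. Comparisons within a mouse used the 7 mice with at least 20 long footprints, which leaves severe EAE mouse 5 as the only mouse of its group there. The study describes this mouse as an outlier of the severe group, in remission shortly before the experiment ended. Its reproducibility analysis also flagged the sample. Of the cell type markers, footprints of any length were found in all 7 for neurons, all 7 for oligodendrocytes, all 7 for astrocytes and 11 of 13 for microglia and leukocytes.

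Stretches of the sequences that carry the main findings are shown first, in GRCm38 and 5′ to 3′. The first set is from 6 long footprints of naïve mouse 3, 885 to 887 nt long, which lay on 6 chromosomes and outside genes. It shows how alike the members of 1 set of copies were. Capitals mark bases that differ from the most frequent base of the set.
chr1:5805213-5805272, plus strand: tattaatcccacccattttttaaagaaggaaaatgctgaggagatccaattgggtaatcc
chr13:32948459-32948518, plus strand: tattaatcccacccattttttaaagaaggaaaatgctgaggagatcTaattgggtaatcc
chr14:104105705-104105764, plus strand: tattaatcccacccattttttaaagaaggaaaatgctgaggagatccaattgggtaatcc
chr17:67829410-67829469, plus strand: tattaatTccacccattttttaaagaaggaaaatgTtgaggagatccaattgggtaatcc
chr3:9095814-9095873, minus strand: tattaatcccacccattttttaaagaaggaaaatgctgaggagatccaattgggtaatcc
chr9:73411463-73411522, minus strand: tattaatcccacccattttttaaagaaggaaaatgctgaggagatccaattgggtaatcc
Over these 60 nt, 4 of the 6 footprints were identical, and the others differed at 1 and 2 bases.

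The second set is from 4 long footprints, on the strand of the gene, with UAG (TAG in DNA) in capitals. They are shown for genes described below. Long footprints of 5 mice covered the *Kcnq1ot1* stretch, those of 3 mice the *Ube3a* stretch and those of 2 mice the *Srrm2* stretch, and the *Cntnap2* stretch is the middle of the longest footprint of all.
Kcnq1ot1, noncoding exon, chr7:143238092-143238232, minus strand: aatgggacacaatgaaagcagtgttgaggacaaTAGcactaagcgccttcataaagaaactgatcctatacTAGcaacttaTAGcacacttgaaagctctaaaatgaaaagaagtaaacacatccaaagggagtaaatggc
Ube3a, intron, chr7:59294011-59294160, plus strand: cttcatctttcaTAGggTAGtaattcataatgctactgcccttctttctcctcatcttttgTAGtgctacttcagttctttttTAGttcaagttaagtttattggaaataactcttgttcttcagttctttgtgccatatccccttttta
Srrm2, coding sequence, chr17:23816650-23816799, plus strand: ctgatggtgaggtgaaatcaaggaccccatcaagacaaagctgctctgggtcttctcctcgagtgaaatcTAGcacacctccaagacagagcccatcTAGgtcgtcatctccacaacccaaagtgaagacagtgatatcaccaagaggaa
Cntnap2, intron, chr6:45751044-45751193, plus strand: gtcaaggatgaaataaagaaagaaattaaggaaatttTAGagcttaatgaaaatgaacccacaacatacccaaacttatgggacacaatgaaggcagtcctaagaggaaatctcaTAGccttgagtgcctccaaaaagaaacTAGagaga
They hold 3, 4, 2 and 3 UAG. The *Kcnq1ot1* and *Cntnap2* stretches, from different chromosomes, share the run atgggacacaatgaa of 15 nt.

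Differences between the groups in the number of long footprints were smaller than the spread between mice. The naïve cords held 109 (mouse 1), 46 (mouse 2) and 79 (mouse 3). The mild EAE cords held 61 (mouse 3), 59 (mouse 4) and 173 (mouse 7). Among the severe EAE cords, mouse 5 had 333, mouse 1 had 12, and none was listed for mouse 2 or mouse 6. The severe EAE mice thus held both the highest and the lowest values, and the 3 groups overlapped. The means were 78.0 ± 31.5 (SD, n = 3) in naïve, 97.7 ± 65.2 (n = 3) in mild and 86.2 ± 165 (n = 4) in severe EAE. EAE mice differed from naïve mice by 13.1 footprints (two-sided exact permutation p = 0.908). The mild EAE mean was 19.7 above the naïve mean (exact p = 0.800), the severe EAE mean 8.25 above it (exact p = 1), and severe minus mild EAE was −11.4 (exact p = 1). All 4 adjusted p were 1, where 3 mice against 3 cannot go below 0.1 and 3 against 4 not below 0.0286. Without severe EAE mouse 5, the severe EAE mean was lower than the naïve mean by 74.0 footprints, with no overlap between the groups (exact p = 0.1, the smallest possible).

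Relative to the length of the list, the naïve shares were 0.637% (mouse 1), 0.264% (mouse 2) and 0.452% (mouse 3). The mild EAE shares were 0.420% (mouse 3), 0.605% (mouse 4) and 0.708% (mouse 7). For severe EAE they were 0.449% (mouse 1), 1.04% (mouse 5) and 0% in both others. The share in severe EAE mouse 1 was thus within the range of the naïve mice, although it had 12 long footprints. The longest footprint was 275 nt in severe EAE mouse 2 and 437 nt in severe EAE mouse 6, whose lists were the shortest. EAE and naïve mice differed by 0.0104 percentage points (exact p = 0.992), and none of the 4 comparisons had an adjusted p below 0.992.

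**Figure D1:**
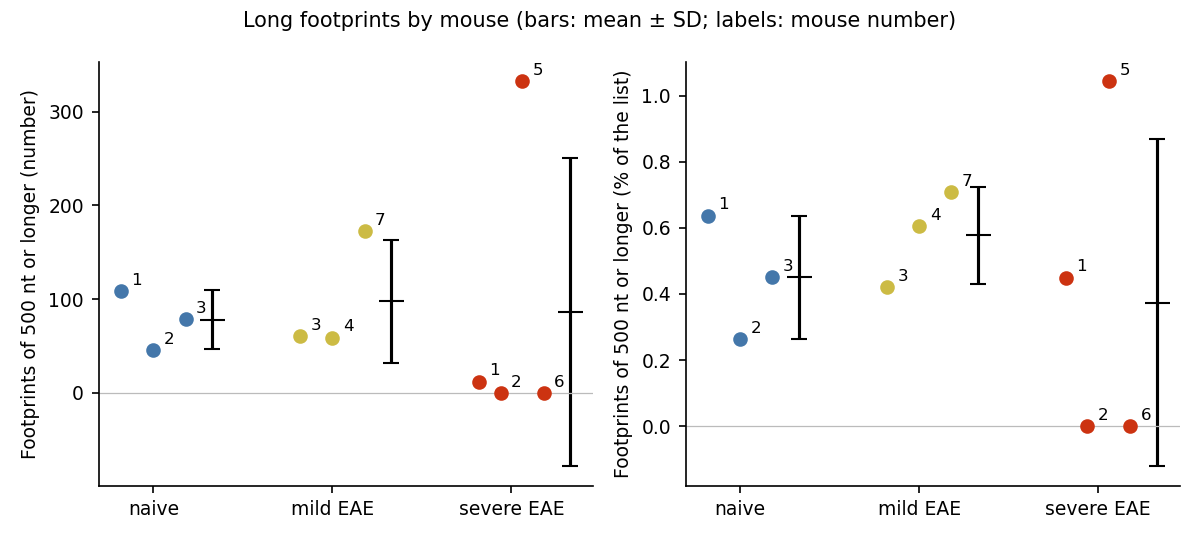
Long footprints by mouse, as a number (left panel) and as a percent of the mouse's list (right panel). Points are mice with their label number, bars are the group mean ± SD, and severe EAE spans from 0 in mice 2 and 6 to 333 in mouse 5.

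Long footprints lay mostly outside coding sequence, where shorter footprints were concentrated. In the 7 mice, 42.3% to 58.7% of long footprints had their midpoint outside any annotated gene, against 5.82% to 9.85% of the footprints under 500 nt of the same mice. Coding sequence held 0% to 12.0% of the long and 40.4% to 73.5% of the shorter footprints. Introns held 28.8% to 44.1% of the long and 9.89% to 37.5% of the shorter ones. The rest of the 872 were 86 in exons of noncoding genes, 24 in 3′ UTRs, 3 in other exons and 1 in a 5′ UTR, beside 79 in coding sequence, 273 in introns and 406 outside genes.

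For the class outside genes, the shares of long footprints were 51.4% (mouse 1), 58.7% (mouse 2) and 46.8% (mouse 3) in naïve cords. They were 45.9% (mouse 3), 47.5% (mouse 4) and 45.7% (mouse 7) in mild EAE and 42.3% in severe EAE mouse 5. The lowest of these was more than 4 times the highest share of shorter footprints, so the 2 sets did not overlap. The mean within-mouse difference was 40.3 percentage points ± 4.18 (SD, n = 7 mice, higher in 7 of 7, two-sided exact sign-flip permutation p = 0.0156, adjusted over 7 classes p = 0.0273). Coding sequence was lower by 50.2 points on average (a difference of −50.2 ± 9.49, lower in 7 of 7, adjusted exact p = 0.0273). A footprint centred in a coding exon must cross the exon's ends where the exon is shorter. The coding share is therefore tied in part to the length that chose the long footprints, and its p only describes the contrast. The classes 3′ UTR and 5′ UTR differed by −2.51 and −1.74 points (adjusted exact p = 0.0273 for both). Introns differed by 10.3 points, higher in 5 of 7 mice, which did not pass (exact p = 0.0625, adjusted 0.0729), nor did exons of noncoding genes, with 4.03 points (exact p = 0.0469, adjusted 0.0656). An exact p of 0.0156 is the smallest that 7 mice allow. With 1 of the 7 left out, the classes outside genes and coding sequence had an adjusted exact p of 0.0547, except without mild EAE mouse 4, where it was 0.0438 and exons of noncoding genes also passed (5.20 points, adjusted exact p = 0.0438). Fewer mice raise the smallest possible exact p, and both classes kept their direction in every mouse.

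The classes also shifted gradually with length below the limit. Coding sequence held 84.4% ± 11.9 (SD, n = 10 mice) of footprints under 100 nt, 35.5% ± 12.3 (n = 10) of those of at least 100 but under 200 nt, 12.7% ± 2.62 (n = 6) of those of at least 400 but under 500 nt and 2.10% ± 3.82 (n = 7) of those of 750 nt or more. The share outside genes was 2.99%, 12.1%, 35.6% and 58.8% in the same length classes. The share outside genes was 35.6% ± 15.2 in the class just below the limit and 35.9% ± 9.44 in that from 500 to under 750 nt (n = 6). Against footprints of at least 200 but under 500 nt, the difference outside genes was 24.9 points and that in coding sequence −15.1 points (adjusted exact p = 0.0273 for both), and the intron difference turned to −2.12.

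**Figure D2:**
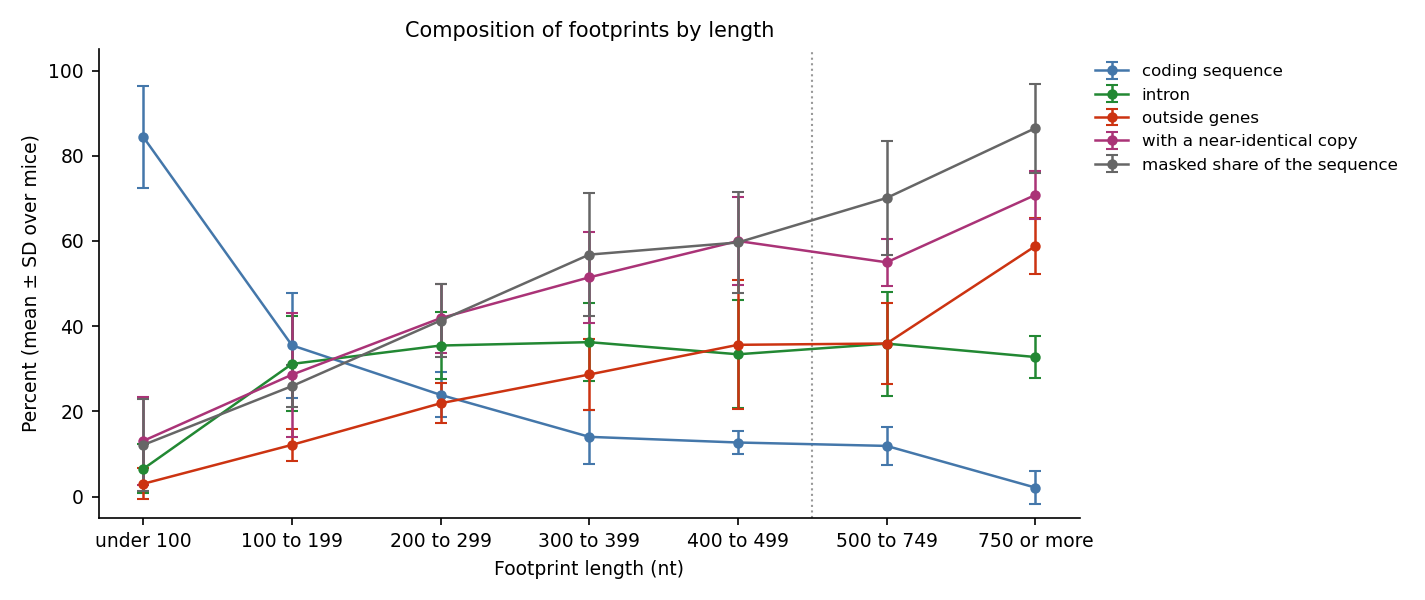
Percent of footprints (mean ± SD over mice with at least 20 footprints of that length) in coding sequence, introns and outside genes, with a near-identical copy, and the masked share of the sequence, by footprint length in nt. The dotted line is the limit of 500 nt, and coding sequence falls from 84.4% to 2.10% while the share outside genes goes from 2.99% to 58.8%.

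A footprint fits within an exon only if the exon is at least as long, so the single-exon share is tied to the length that chose the long footprints and is given as a description. Of the 872, 146 lay inside 1 annotated exon, whose median length was 4430 nt, and 4 contained a whole annotated intron. The share in 1 exon was 4.35% to 20.4% for long and 47.9% to 75.3% for shorter footprints. Long footprints also contained a whole exon less often, in 0% to 5.50% against 7.43% to 23.7% (−14.1 points, lower in 7 of 7 mice, exact p = 0.0156, adjusted over 3 measures 0.0234).

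Most of the long footprints were repetitive sequence. In the reference, bases masked as repetitive or low in complexity are written in lower case, and these are 36.4% of the chromosomes. The mean masked share of long footprints was 75.2% (mouse 1), 97.8% (mouse 2) and 83.2% (mouse 3) in naïve cords. It was 60.2% (mouse 3), 93.3% (mouse 4) and 72.1% (mouse 7) in mild EAE and 69.7% in severe EAE mouse 5. In shorter footprints of the same mice it was 14.9% to 25.2%, below the genome. The difference was 59.5 points ± 10.2 (SD, higher in 7 of 7 mice, exact p = 0.0156). By length, the masked share was 59.6% ± 11.9 from 400 to under 500 nt and 70.1% ± 13.5 from 500 to under 750 nt (n = 6). Of the 867 long footprints on chromosomes, 579 were masked over at least 90% of their length and 129 over at most 10%. The kind of repeat is not named here, since no repeat annotation was used. The comparison of masking and that of copies were added after the data were seen.

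GC content went the same way in every mouse. Long footprints had 38.8% to 44.9% G and C and shorter ones 48.8% to 51.4%, a difference of −8.01 points ± 2.74 (lower in 7 of 7 mice, exact p = 0.0156).

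Long footprints came in sets of near-identical sequence within 1 mouse. A copy was another footprint of the same list that matched at least 80% of the footprint in 1 alignment of at least 90% identity. Of the 867, 545 had a copy. The share was 58.7% (mouse 1), 71.7% (mouse 2) and 60.8% (mouse 3) in naïve cords. It was 60.7% (mouse 3), 67.8% (mouse 4) and 61.2% (mouse 7) in mild EAE and 63.1% in severe EAE mouse 5. Shorter footprints had a copy in 15.5% to 22.1%, so the sets did not overlap, and the difference was 46.2 points ± 4.80 (higher in 7 of 7 mice, exact p = 0.0156). With 95% identity the difference was 32.2 points (exact p = 0.0156). Against footprints of at least 200 but under 500 nt, it was 20.8 points with 90% identity (exact p = 0.0156). From 400 to under 500 nt, the copy share was 59.99% ± 10.3 (SD, n = 6). From 500 to under 750 nt it was 54.98% ± 5.53 (n = 6), so it did not rise at the limit. At 750 nt or more it was 70.8% ± 5.63 (n = 7).

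Linked through such matches, the 867 fell into 415 sets, 301 of them with 1 member and 114 with more. A match is judged over the footprint's own length, so others can match a footprint that has no copy itself. A copy can also be a shorter footprint, which the sets leave out. The sets with more than 1 member thus held 566 footprints, against 545 with a copy. Among the 114, a set of exactly 6 was the most frequent size, with 33 sets, against 12 sets of 5 and 2 sets of 7. The largest set had 18 members. Sets of 6 were found in naïve mouse 1 (4 sets), naïve mouse 3 (3), mild EAE mice 3, 4 and 7 (3, 1 and 6) and severe EAE mouse 5 (16), and in none of naïve mouse 2 and severe EAE mouse 1. They lay on 1 to 6 chromosomes, with a median of 4. The aligner reports, by default, up to 5 more alignments of a contig beside the best, and whether these were kept is not given in the sources used here, so the part of this setting in the sets was not tested. Which member of a set the RNA came from is uncertain.

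**Figure D3:**
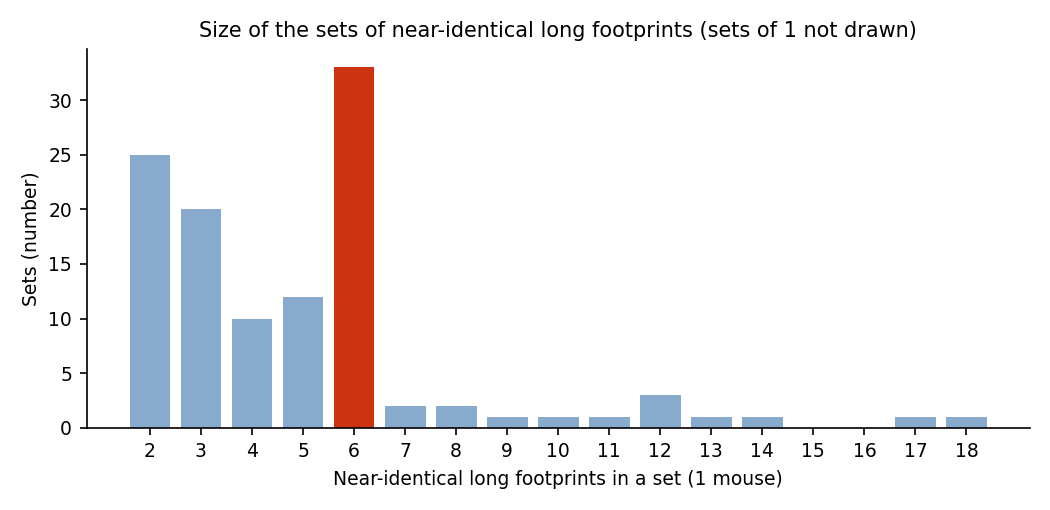
Number of sets (vertical axis) by the number of near-identical long footprints in the set (horizontal axis), each set within 1 mouse, 8 mice together. Sets of 6, in red, number 33, and the 301 sets of 1 are not drawn.

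Copies and single footprints differed in where they lay. Of the 545 with a copy, 340 (62.4%) were outside genes, 149 in introns, 37 in exons of noncoding genes and 12 (2.20%) in coding sequence. Of the 322 without one, 61 (18.9%) were outside genes, 124 in introns, 49 in exons of noncoding genes and 67 (20.8%) in coding sequence. With copies left out of both sets, 5 mice kept at least 20 long footprints. The differences of long from shorter were then 18.4 points outside genes, −48.8 in coding sequence, 48.7 in the masked share and −6.92 in GC content (exact p = 0.0625 for each, the smallest that 5 mice allow).

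A single stretch of chromosome 2 held many of them, and it was singled out after the data were seen. Between 175 and 178 Mb lay 161 of the 872 (18.5%), against 3757 of all 136207 footprints (2.76%). The stretch holds 84 annotated genes, 43 of them protein-coding, and 141 of the 161 overlapped no gene and 152 had a copy. All 8 mice with a long footprint had some there, from 5 in naïve mouse 3 to 50 in severe EAE mouse 5. In severe EAE mouse 1 they were 10 of its 12. *Zfp973*, a zinc finger gene, was the gene there with the most, 6 long footprints. With the stretch left out, the difference outside genes was 31.5 points and that in copies 41.2 points (adjusted exact p = 0.0219 and 0.0156), and the intron difference passed, with 17.1 points (adjusted exact p = 0.0219).

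**Figure D4:**
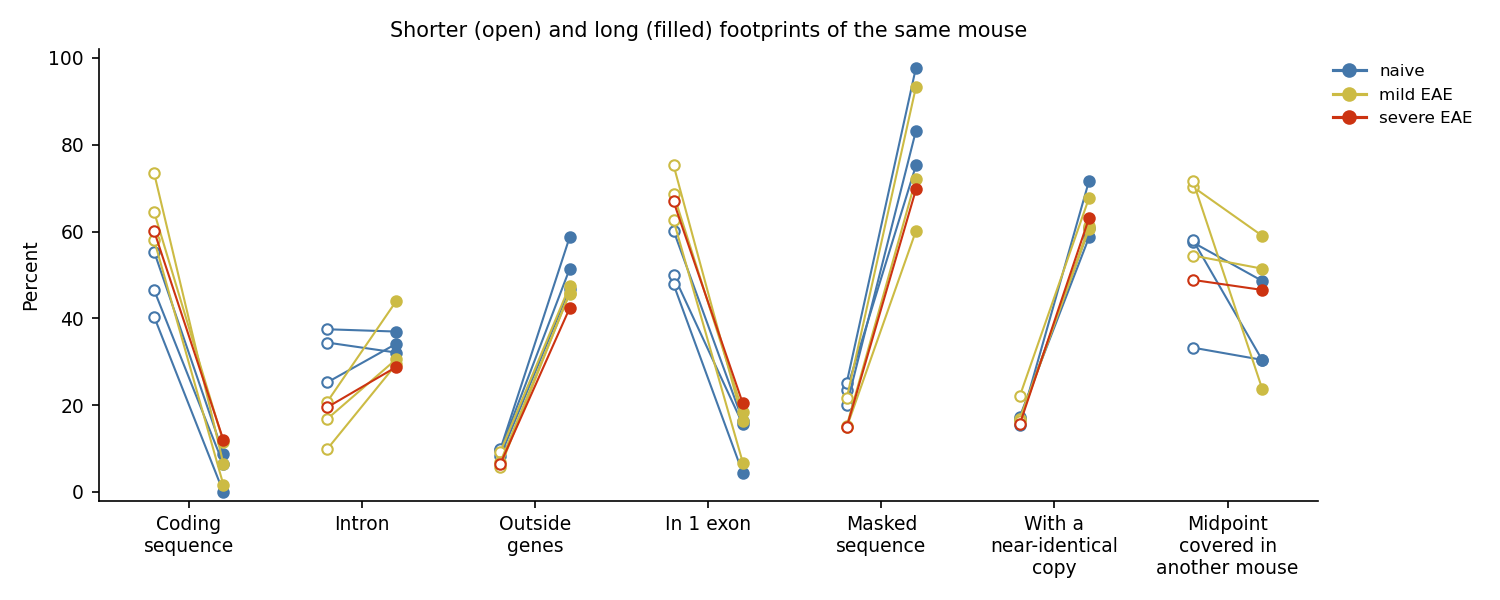
Percent of shorter footprints (open points) and long footprints (filled points) of the same mouse, joined by a line, for 7 measures in the 7 mice with at least 20 long footprints. Coding sequence and the single-exon share are lower, and the share outside genes, the masked share and the copies higher, for long footprints in 7 of 7 mice.

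No class of the long footprints passed the test between EAE and naïve cords. Over the 4 EAE and 3 naïve mice, coding sequence held 7.96% and 5.09% on average, introns 33.3% and 34.4%, and the class outside genes 45.3% and 52.3%. The differences were 2.86 (exact p = 0.457), −1.15 (exact p = 0.857) and −6.96 points (exact p = 0.0571), with adjusted p of 0.2 or more in all 7 classes. The 3′ UTR share was 2.69% and 0.306%, a difference of 2.38 points (exact p = 0.0571, adjusted 0.2). The contrast of long with shorter footprints was also compared between the groups, and none of 10 measures passed (adjusted exact p = 0.190 or more). With 3 mice against 4, an exact p cannot go below 0.0286. Adjustment over 7 classes or 10 measures lifts that above the threshold unless most of them reach it. These tests could thus hardly pass and do not show that the groups were alike.

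UAG, which hnRNP A1 is known to prefer, and AGGU were searched in footprints whose genes all had 1 strand, reading that strand. UAG occurred at 10.96 to 18.9 per 1000 nt in long footprints and at 9.45 to 14.7 in shorter ones. The mean log2 ratio was 0.29 ± 0.33, higher in 5 of 7 mice, which did not pass (exact p = 0.0625, adjusted 0.125). Relative to equally long windows at a distance of 200 nt it was 0.07 (exact p = 0.141), and against footprints of at least 200 but under 500 nt it turned to −0.18 (exact p = 0.219). AGGU occurred at 2.65 to 6.64 per 1000 nt in long and 3.39 to 4.78 in shorter footprints, with a log2 ratio of −0.03 ± 0.39 (exact p = 0.891).

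Long footprints were shared between mice less often than shorter ones when judged by position, and the difference depended on how copies and overlaps were treated. The midpoint of a long footprint was covered by a footprint of another mouse in 48.6% (naïve mouse 1) and 30.4% (both naïve mouse 2 and naïve mouse 3). The shares were 59.0% (mouse 3), 23.7% (mouse 4) and 51.4% (mouse 7) in mild EAE and 46.5% in severe EAE mouse 5. For shorter footprints it was 33.2% to 71.6%, and the ranges overlapped. The difference was −14.8 points ± 17.1 (lower in 7 of 7 mice, exact p = 0.0156). With copies left out it was −2.50 (exact p = 0.750, 5 mice), and with any overlap of more than 1 nt, which a long footprint meets more easily, it was −2.82 (exact p = 0.609). Without naïve mouse 3 or severe EAE mouse 5 it also did not pass (exact p = 0.0938 for both).

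By sequence, more of them recurred. Of the 867 on chromosomes, 533 overlapped a footprint of another mouse by more than 1 nt, and 214 overlapped a long one. Of the 334 that did not, 175 had a near-identical footprint elsewhere in the list of another mouse, which leaves 159 (18.3%) with neither. Merged over mice, the 872 made 745 regions, of which 654 were long in 1 mouse, 70 in 2, 13 in 3, 5 in 4 and 3 in 5. Of the 3 regions in 5 mice, 2 lay in *Kcnq1ot1* and 1 outside genes on chromosome 2 (chr2:177180605-177181939).

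The long footprints overlapped 342 genes, 2.45% of the 13965 genes with a footprint of any length, and 255 of the 342 were protein-coding. Of the 342, 266 held one in 1 mouse, 76 in at least 2 and 22 in at least 3. In 165 genes every long footprint had a copy and in 155 none had. Without severe EAE mouse 5, the number of genes was 216.

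*Kcnq1ot1*, with its host gene, held the most long footprints of the 342 genes. It is a long noncoding RNA, transcribed antisense within the potassium channel gene *Kcnq1*, that is known to silence imprinted neighbours. It had 26 long footprints, all in its single exon of 93092 nt, and the lists cannot tell it from *Kcnq1*, since they give no strand. There were 8 in naïve mouse 1, 2 in naïve mouse 2, 3 in naïve mouse 3, 2 in mild EAE mouse 4, 4 in mild EAE mouse 7 and 7 in severe EAE mouse 5, and 0 in the other 4 mice. The longest was 1390 nt, in severe EAE mouse 5. Of the 26, 3 had a copy, and the mean masked share was 70.7%. A stretch of 141 nt, shown above, was inside long footprints of 5 mice.

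*Ube3a*, the ubiquitin ligase whose loss causes Angelman syndrome and which is imprinted in neurons, held a long footprint in 7 mice, more than any other gene. There were 3 in naïve mouse 1, 1 in naïve mouse 3, 1 in each mild EAE mouse, 1 in severe EAE mouse 1 and 4 in severe EAE mouse 5, and 0 in the other 3 mice. The 12 were 517 to 811 nt long, 9 had their midpoint in an intron, and none had a copy as defined above. However, 1 of those in severe EAE mouse 5 was matched by other long footprints, in a set of 5 on 5 chromosomes. Their mean masked share was 40.9%. The intronic stretch shown above was covered in mild EAE mice 3 and 4 and severe EAE mouse 5, by footprints of 592, 592 and 647 nt. In severe EAE mouse 1 the long footprint, of 701 nt, was the only one listed in the gene. One long footprint of naïve mouse 1, of 600 nt, also overlapped *Snhg14*, the antisense host RNA of this locus.

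Other genes with long footprints in many mice held them mainly in introns. *Nkain2*, which encodes a partner of the sodium pump, had 7 in 5 mice, all intronic, up to 2152 nt, with a mean masked share of 92.2%. *Fgf14*, a regulator of sodium channels, had 4 intronic ones in 3 mice, up to 2006 nt. *Gpr158*, a neuronal receptor, had 3 intronic ones in 3 mice, up to 1890 nt, none with a copy. *Gvin1*, an interferon-induced GTPase gene, and its neighbour *Gm4070*, with the antisense gene *Gm20663*, had 7 and 8 in the same 5 mice. In each of these mice the lengths came in pairs, such as 1059 nt in both genes in severe EAE mouse 5, and 7 in each gene had a copy. These 2 genes cannot be told apart as the source.

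The longest footprints were also intronic or outside genes. The longest, of 2690 nt, was in naïve mouse 2 in *Cntnap2*, an adhesion protein of the axon beside the nodes of Ranvier (chr6:45749774-45752463). Next were a pair of 2468 nt in mild EAE mouse 4, in *Zfp973* and outside genes (chr2:175494688-175497155), copies of each other. In mild EAE mouse 7, *Kdm4d*, a histone demethylase, had one of 2338 nt, *Lsamp*, a neuronal adhesion protein, one of 2201 nt, and *Tgfbr1*, a TGF-β receptor, one of 2200 nt. Those in *Kdm4d*, *Lsamp* and *Tgfbr1* had no copy, and all 3 were masked over at least 95%. The other 2 of the 8 longest, of 2159 and 2157 nt, lay outside genes in the same mouse.

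A smaller number of long footprints, without copies, lay inside large coding exons. *Ank2*, ankyrin B, which links membrane proteins to the spectrin skeleton, had 1 in each of naïve mice 1, 2 and 3 (619, 522 and 530 nt), mild EAE mouse 4 (700 nt) and severe EAE mouse 5 (662 nt). Those of naïve mice 1 and 3 and severe EAE mouse 5 lay next to each other in its exon of 6198 nt and did not overlap, and the other 2 were intronic. *Dst*, the linker dystonin, had 6, of which 5 lay in coding exons, 1 in naïve mouse 3, 1 in mild EAE mouse 3 and the others in severe EAE mouse 5, where the longest was 983 nt. *Srrm2*, a scaffold of splicing speckles, had 6 in its exon of 6569 nt, 2 in mild EAE mouse 7 (up to 1111 nt) and 4 in severe EAE mouse 5 (up to 820 nt), with a mean masked share of 1.23%. *Map2*, a dendritic microtubule protein, had 1 of 671 nt in naïve mouse 1 and 3 in severe EAE mouse 5, up to 987 nt, all in 1 exon of 3741 nt. In all, 68 genes held a long footprint within 1 exon of any class and without a copy. This number is not limited to coding exons and includes UTRs and exons of noncoding genes and pseudogenes. It also includes genes that only overlap the exon of another gene, such as *Kcnq1* with that of *Kcnq1ot1*. Severe EAE mouse 5 and mild EAE mouse 7, which carry many of these footprints, also had the longest lists.

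By list of genes, long footprints were most frequent among spectrin, ankyrin and linker genes, where 8 of 14 footprinted members held one (57.1%, against 2.45% of all footprinted genes). These were *Ank2*, *Ank3*, *Dst*, *Macf1*, *Plec*, *Ahnak*, *Sptbn1* and *Syne1*, and their genes and exons are long. *Plec* and *Ahnak* had 3 each, all in coding exons, the longest 637 and 630 nt. Of 20 neurofilament and microtubule genes, 5 held one (*Map1a*, *Map1b*, *Map2*, *Tuba1a* and *Tuba1b*). Of 22 synaptic genes, 6 did, among them *Pclo*, a scaffold of the active zone, with 3 in coding sequence in naïve mouse 1 and severe EAE mouse 5.

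Of 15 footprinted long noncoding RNAs, 4 held one, *Kcnq1ot1*, *Meg3*, *Snhg11* and *Snhg14*. Myelin and oligodendrocyte genes had 2 of 15, *Mbp* (2 long footprints, 1 each in naïve mouse 1 and mild EAE mouse 7, up to 615 nt) and *Mal*. Astrocyte genes had 2 of 14, the water channel *Aqp4* and the glutamate transporter *Slc1a2*, with 2 long footprints each, all in 3′ UTRs. SR splicing factors had 1 of 14, *Srrm2*. The list of pump and chaperone genes had 1 of 22, *Pkm*, which encodes pyruvate kinase and is neither a pump nor a chaperone. *Atp1b2*, a sodium pump subunit outside the lists, had 2 in its 3′ UTR. They were 512 and 502 nt long, had no copy and came from mild EAE mouse 7 and severe EAE mouse 5. None of the 26 footprinted hnRNP genes, the 21 microglia and leukocyte genes or the 2 mitochondrially encoded genes held one. The share over all footprinted genes was 2.45%, so lists this small need not hold any. *Mpeg1*, a macrophage gene outside the lists, had 2 in coding sequence, without a copy. They were 658 and 568 nt long and came from mild EAE mouse 7 and severe EAE mouse 5. The list values are counts over lists chosen with earlier results of these data known, and no test was made.

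**Figure D5:**
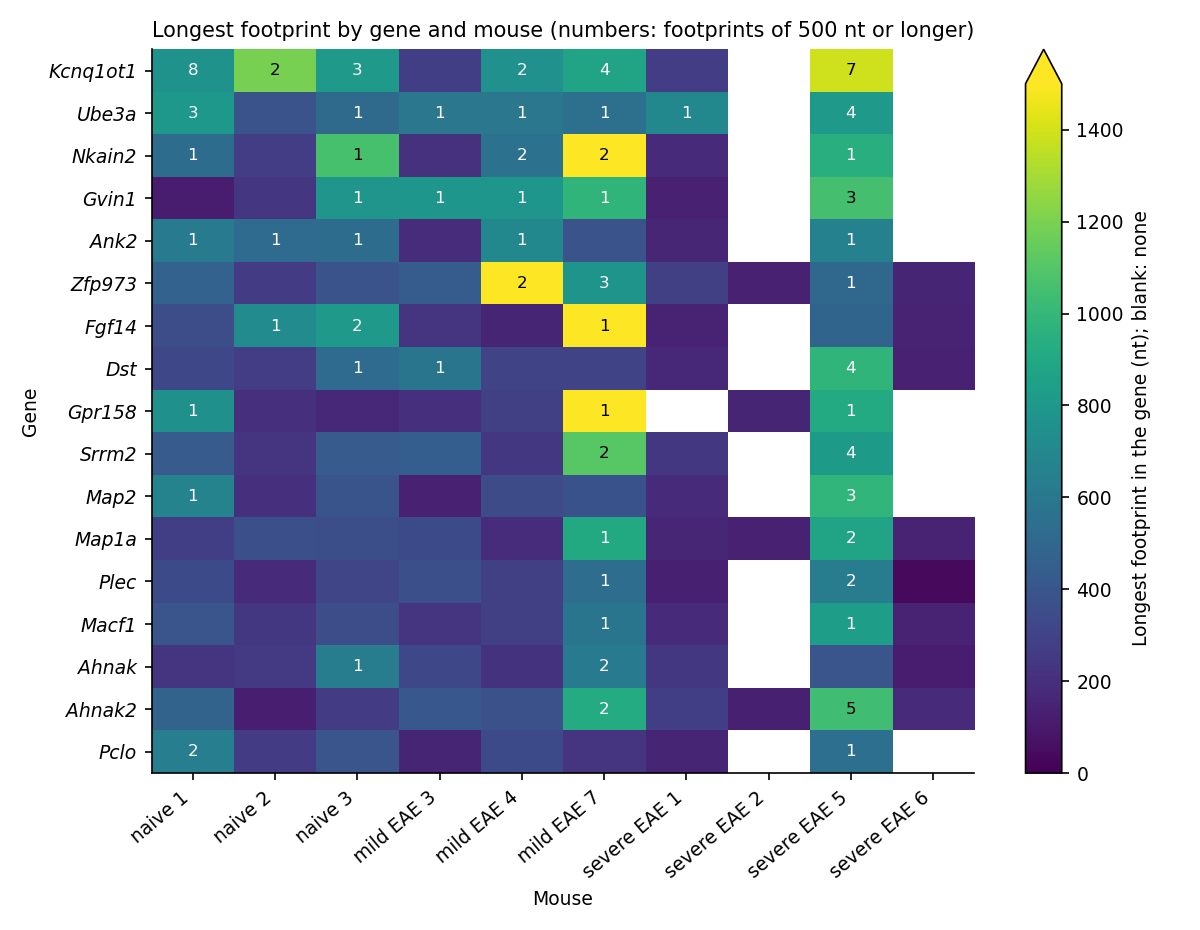
Length in nt of the longest footprint (colour, blank where none was listed) in named genes (rows) and 10 mice (columns), with the number of footprints of at least 500 nt printed in the cell. *Kcnq1ot1* and *Ube3a* hold long footprints in 6 and 7 mice, and severe EAE mice 2 and 6 hold none in any gene.

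Genes with long footprints in several mice of 1 condition and none of the other were counted. In at least 2 naïve mice and no EAE mouse, long footprints were found in 2 genes, 0.585% of the 342, where footprints of any length had this pattern in 2.42% of footprinted genes. These were *Dmd*, dystrophin, with intronic footprints of 698 and 903 nt in naïve mice 1 and 2, and *Nwd1*, with 518 and 554 nt in the same mice. Both genes also had shorter footprints in EAE mice, up to 314 nt in *Dmd* and 170 nt in *Nwd1*. In at least 2 EAE mice and no naïve mouse, they were found in 35 genes (10.2%), beside 10.5% for footprints of any length. By covered length the first of these were *Zfp973* (3 mice), the scaffold gene *Ahnak2*, *Srrm2*, *Gm20498* and *Cox16*, a factor in cytochrome c oxidase assembly. *Ahnak2*, *Srrm2*, *Gm20498* and *Cox16* had theirs in mild EAE mouse 7 and severe EAE mouse 5. These mice had the longest lists and, by the study's library counts, the most mapped unique reads of the immunoprecipitations. The part of sequencing depth in these genes was not tested. In naïve mice the longest footprint was 479 nt in *Ahnak2* and 433 nt in *Srrm2*, below the limit. *Gm20498* and *Cox16* overlap and shared the same 4 footprints.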

How the data were processed

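The deposited lists of 10 immunoprecipitations give chromosome, start and end of each footprint, an other unit with no score. The authors demultiplexed reads with bcl2fastq 2.19.0.316, trimmed them with fastp and assembled them with rnaSPAdes. Contigs were placed on GRCm38 by spliced alignment (minimap2 2.17), sites found in the matched input or pooled IgG were removed, and overlapping sites were merged without strand. Inputs and IgG libraries were not analysed here. The lists hold only retained sites, and their number limits the precision. The labels name antibody clone 9H10 and the study's methods clone 4B10.

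Long footprints were those of at least 500 nt. Of all footprints, 571 lay on 18 sequence names other than the nuclear chromosomes and have no sequence features here. Classes follow GENCODE release M 21 at the midpoint, in the order coding sequence, 3′ UTR, 5′ UTR, noncoding exon, other exon, intron. Copies were found with blastn 2.17.0. Groups were compared by two-sided exact permutation over mice, and long with shorter footprints by exact sign flips over mice, with Benjamini-Hochberg adjustment and a threshold of 0.05. Each hnRNP A1 immunoprecipitation came from 1 mouse and was 1 replicate, and only the IgG controls were pooled. Named genes were the 12 with long footprints in the most mice, those of the 8 longest, the 6 with most nucleotides, the first 5 found in naïve or EAE mice alone, and list members. *Atp1b2* and *Mpeg1* were named beside the lists after the data were seen. The members and lists were chosen with earlier results of these data known. Alternatives were limits of 400 and 750 nt, chromosomes only, merging within 50 nt, a log2 scale, values per 1000000 mapped unique reads, a replicate block, coding genes, covered nucleotides, a comparison set of 200 to under 500 nt, other overlaps, flanks, closest genes and each mouse left out. The copy, masking and chromosome 2 alternatives were added after the data were seen. Code was tested on simulated data. Computations used Python 3.11.15, numpy 2.4.6, scipy 1.17.1, pysam 0.24.0, samtools 1.23.1 and matplotlib 3.10.9.

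1 gene and 1 set of sequences are not reported here.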

Additional observations from a re-analysis of the deposited data

Results flagged for a closer look

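Within severe EAE, mouse 5 had 333 long footprints where the others had 0 to 12. Its gap to the nearest of the 4 mice was 0.964 of the group's range, beyond Dixon's critical value, which chance passes in about 1 of 20 groups. As a percent of the list, its gap was 0.570 of the range, below that value. Its list, of 31870 footprints, was also the longest of all. The study, too, describes this mouse as an outlier of its group.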

How the results depend on the processing

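The differences between groups in number and percent passed no test under any alternative, and their direction was not stable. From 400 nt, severe EAE minus naïve was −2.08 footprints, EAE minus naïve −0.0556 points and the class outside genes 0.702 points. From 750 nt these were −6.58, −0.0109 and 2.51, EAE minus naïve was −1.05 footprints and the noncoding exon class −3.67. Merging within 50 nt gave −0.0125 points. On the log2 scale EAE and severe EAE minus naïve were −1.74 and −3.20, and per 1000000 mapped unique reads EAE, mild and severe EAE minus naïve were −7.44, −4.09 and −9.94.

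With the replicate block, which pairs mice that share only a number, EAE minus naïve was −53.7 footprints (exact p = 0.25) and −0.161 points, and severe EAE minus naïve −71.5 footprints. It could not be run for classes, with 1 pair, and moved no call.

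Long from shorter, the intron difference was 12.0 from 400 nt, 13.3 with protein-coding genes only, and 17.1 without the chromosome 2 stretch, each now past the threshold, and −2.12 against 200 to under 500 nt, where noncoding exons were at −2.70 and UAG at −0.18. With every mouse that had a long footprint, other exons were at 0.847. AGGU was at 0.12 from 400 nt, 0.0031 from 750 nt, 0.024 with all such mice and 0.14 without copies. Without copies, coding sequence (−48.8), outside genes (18.4), single exon (−37.5), GC (−6.92) and masking (48.7) could not pass with 5 mice, and sharing was −2.50. Any overlap gave −2.82.

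Genes with a long footprint numbered 659 from 400 nt, 117 from 750 nt and 624 by closest gene, and those in at least 2 mice 161, 18 and 120.

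With each mouse left out, ranges were −27.2 to 28.6, −18.0 to 39.0, −74.0 to 37.0 and −93.7 to 26.2 footprints for EAE, mild and severe EAE minus naïve and severe minus mild EAE. In percent, EAE and severe EAE minus naïve ranged from −0.0869 to 0.103 and −0.301 to 0.0475. In the EAE classes, introns ranged from −4.76 to 0.323 and other exons from −0.306 to 0.424. Long from shorter, coding sequence was −51.9 to −47.4 and outside genes 38.9 to 41.0, with an adjusted p of 0.0547 without any 1 of the 7 mice but mild EAE mouse 4 (0.0438). The smallest possible exact p is larger with fewer mice. Sharing was −17.2 to −9.68, AGGU −0.11 to 0.081, genes 216 to 342 and those in at least 2 mice 37 to 76.

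The differences in GC content, masking and copies kept their direction and stayed past the threshold under all alternatives run but that without copies. The lists carry no read counts, so the depth behind a footprint is unknown.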
